A study of Mus musculus with 18 samples.

Results

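Primary tail-tip fibroblasts of 2 Pro/Pro;Cas9/+ mice were compared after lentiviral delivery of gLmna-1, a guide RNA against Lmna, and of gMock, a guide with no match in the mouse genome. These 4 of the 18 libraries of the series, 2 per guide, were chosen by their labelled genotype and guide, and each gLmna-1 library was paired with the gMock library of the same mouse. Other cultures of the same 2 mice carried gLmna-2, another Lmna guide. The same guides were given to fibroblasts of 2 +/+;Cas9/+ mice, which carry Cas9 without the progeria allele, and of 2 Pro/+; +/+ mice, which have 1 progeria allele and no Cas9. All donors were 2 months old, the cultures were at passage 5, and the guide vector carried an mCherry reporter with no selection or sorting for it. Cas9 came from a transgene in every gLmna-1 and gMock culture of Pro/Pro;Cas9/+, so the 2 groups differ in the guide. For 1 of the Pro/+; +/+ donors the name in the labels could stand for 1 animal or a pool.

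Lmna encodes the A-type lamins, intermediate filaments of the nuclear lamina, and its transcripts for lamin A and lamin C share their upstream exons and differ at the 3′ end. Lamin A is made as prelamin A, which is farnesylated and then cleaved by the protease Zmpste24. In Hutchinson-Gilford progeria a cryptic splice site in Lmna yields progerin, a shortened prelamin A that keeps its farnesyl group, and fibroblasts with progerin are known for misshapen nuclei, DNA damage and altered matrix gene expression. Cas9 cuts DNA where its guide matches, and repair of the cut can leave small insertions or deletions.

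Expression was given as FPKM, read counts scaled to transcript length and sequencing depth, and whole reads recovered from it put the 18 libraries between 22424120 and 42623325 reads. The gLmna-1 libraries held 24013358 reads in mouse 1 and 30480516 in mouse 2, against 42623325 and 22905453 in the gMock libraries. The gLmna-1 library of mouse 1 stood apart in read coverage along transcripts. Over 3020 transcripts of at least 2000 bases and 10 FPKM, the median log2 ratio of coverage in the 5′ 35% to that in the 3′ 35% was -0.483 in that library, against -0.254 to -0.109 in the other 17. Fibroblast markers summed to 11600 and 10700 FPKM with gLmna-1 in mouse 1 and mouse 2, against 10800 and 10200 FPKM with gMock. Macrophage and leukocyte markers summed to 556 and 1390 FPKM with gLmna-1, against 715 and 855 FPKM with gMock, so they were lower in mouse 1 and higher in mouse 2. None of the 16 such markers in the table was at 0 in all 4 libraries, while among 12 keratinocyte markers 3, Krt5, Krt14 and Krt1, were at 0 in all 4.

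Lmna itself, on chromosome 3, was measured first. Its most abundant transcript, NM_019390, had 249 FPKM with gLmna-1 and 246 with gMock in mouse 1, and 217 with gLmna-1 and 370 with gMock in mouse 2. The 2 mice differed: the levels nearly matched in mouse 1 and were lower with gLmna-1 in mouse 2. The fitted log2 difference was -0.37 ± 0.17 (SE), which did not pass (limma adjusted p = 0.29). Without the gLmna-1 library of mouse 1 the difference was -0.70 (limma adjusted p = 0.0201), but it then rested on the 1 remaining gLmna-1 library, which was assumed to vary like the other groups.

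The 3′ end that belongs to lamin A alone was lower with gLmna-1 in both mice. Exon 11 of the lamin A transcript, NM_001002011, is absent from the lamin C end (GRCm38, GENCODE M21). Exon 11 had 38.2 FPKM with gLmna-1 and 58.2 with gMock in mouse 1, and 35.2 with gLmna-1 and 79.9 with gMock in mouse 2, which are ratios of 0.656 and 0.44. The untranslated part of exon 12 had 69.0 FPKM with gLmna-1 and 114 with gMock in mouse 1, and 56.2 and 148 in the same order in mouse 2. In exons 11 and 12 both gLmna-1 libraries lay below both gMock libraries. The 27 coding bases of exon 12 had 9.61 FPKM with gLmna-1 and 30.7 with gMock in mouse 1, and 10.1 and 65.5 in that order in mouse 2, from 6 and 8 reads with gLmna-1 and 34 and 39 with gMock.

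The 10 lamin A parts just upstream of exon 11 had a median gLmna-1 to gMock ratio of 0.979 in mouse 1 (range 0.869 to 1.12) and 0.588 in mouse 2 (range 0.535 to 0.61). Divided by that median, the exon 11 ratio was 0.67 in mouse 1 and 0.748 in mouse 2, and the exon 12 untranslated ratio was 0.62 and 0.646. On this measure, with no allowance for uneven coverage, the drop at the lamin A end was of like size in the mice although the upstream level was not. In +/+;Cas9/+ cells the same quantity was 0.719 and 0.64 for exon 11, and in Pro/+; +/+ cells, which lack Cas9, it was 0.824 and 1.08. These ratios are described for 2 mice per genotype and were not tested. The last part of the lamin C end of NM_019390 had 208 FPKM with gLmna-1 and 108 with gMock in mouse 1. In mouse 2 it had 142 with gLmna-1 and 228 with gMock, the opposite direction. Unlike the lamin A ratios, these values were not divided by the upstream median, which was itself 0.588 in mouse 2. The gLmna-1 library of mouse 1 had coverage shifted to the 3′ end (median log2 ratio -0.483, against -0.115 in its gMock library). In mouse 2 the ratios were -0.156 with gLmna-1 and -0.147 with gMock. The part of that shift in the lamin A and lamin C values of mouse 1 was not tested.

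**Figure D1:**
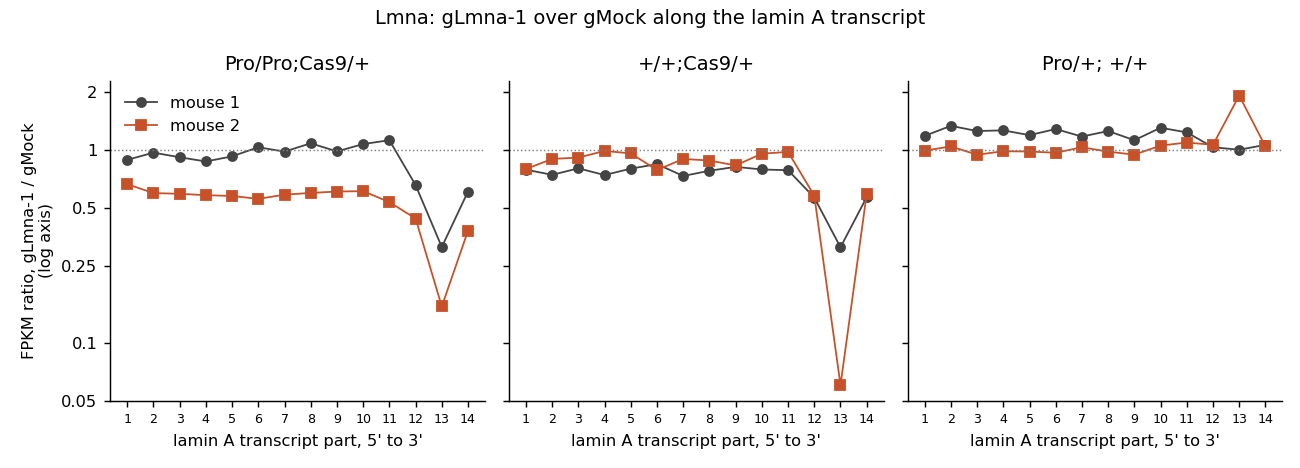
FPKM of each part of the lamin A transcript with gLmna-1 divided by that with gMock in the same mouse, on a log axis, against the order of the parts from 5′ to 3′; the last 3 parts are exon 11 and the coding and untranslated parts of exon 12. In Pro/Pro;Cas9/+ cells exon 11 had ratios of 0.656 and 0.44 in the 2 mice, below the upstream medians of 0.979 and 0.588.

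Across 12599 tested genes, 76 were higher (0.603%) and 47 lower (0.373%) with gLmna-1 than with gMock, together 123 or 0.976% (limma adjusted p under 0.05), and 2265 had an unadjusted p under 0.05. All 123 moved in the same direction in both mice, and 93 moved further in mouse 2. The test favours genes whose changes agree in the mice, so that shared direction follows from the selection. The higher genes spanned log2 differences of 0.36 to 2.10 (median 0.84) and the lower ones -1.64 to -0.38 (median -0.57). The calls depend on the mouse pairing and on single libraries. With no mouse block, or with only the Pro/Pro;Cas9/+ libraries in the fit, 0 genes passed (1070 and 962 at an unadjusted p under 0.05). Leaving out the gMock or the gLmna-1 library of mouse 2 left 0 and 3 genes, leaving out the gMock library of mouse 1 gave 166, of which 67 were among the 123, and leaving out the gLmna-1 library of mouse 1 gave 1773, all 123 included. Each of these fits has 1 library left in a group and takes its spread from the other groups.

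Over all tested genes the changes in the 2 mice had little in common. Of all tested genes 47.1% had a change of the same sign in both, and the 2 mice's changes had a Pearson r of 0.0133 across genes, which are not independent replicates. The change passed 1 log2 unit in 111 genes in mouse 1 and in 587 genes in mouse 2; 19 were higher by that much in both, 10 lower in both and 23 opposite. The SD of the change across genes was 0.305 in mouse 1 and 0.461 in mouse 2.

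**Figure D2:**
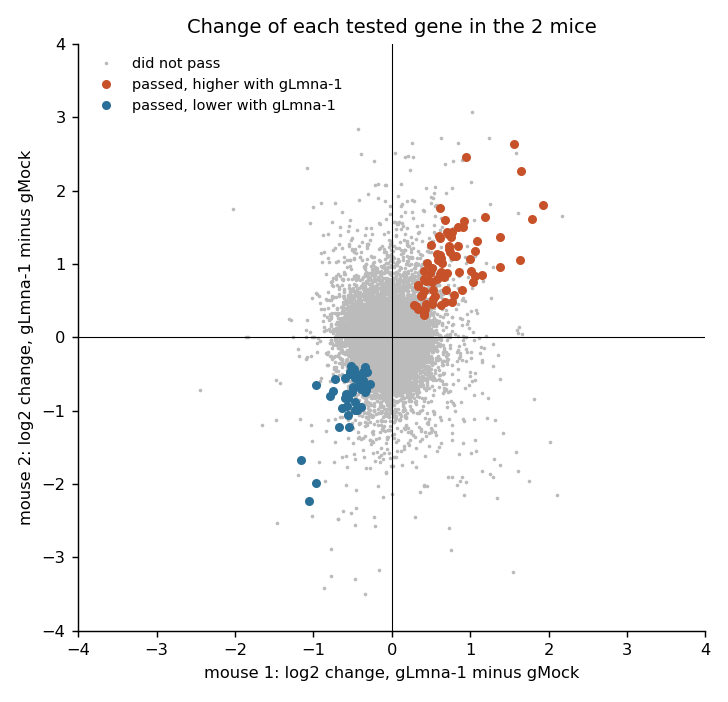
Log2 change of each tested gene, gLmna-1 minus gMock on log2(FPKM + 1), in mouse 1 (x axis) and mouse 2 (y axis); coloured points passed the test. The 123 genes that passed lie in the quadrants where both mice moved the same way, which the test favours. The rest form a cloud, and r was 0.0133 over all genes.

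The lower genes had long transcripts. Their median transcript length was 5390 bases, against 2072 bases for the higher genes and 2688 bases for all tested genes. Over 5 bins of transcript length with about equal numbers of genes, from shortest to longest, the median change in mouse 1 was 0.16, 0.07, -0.01, -0.09 and -0.22, and in mouse 2 it was -0.08, -0.06, -0.03, -0.02 and -0.03. The longest bin held 30 of the 47 lower genes and 5 of the 76 higher ones. The trend with length was seen in the mouse whose gLmna-1 library stood apart in coverage, and its part in the calls was not tested. In mouse 2 alone the 47 lower genes had changes of -2.23 to -0.388 (median -0.685) and the 76 higher genes 0.31 to 2.64 (median 0.901). The genes were called with these same values, so the ranges are no separate check.

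The chemokines Cxcl1, Ccl2 and Cxcl15 were among the 12 named higher genes. Cxcl1, a chemokine that draws neutrophils, had 85.6 and 99.4 FPKM with gLmna-1 in mouse 1 and mouse 2, against 21.8 and 27.8 FPKM with gMock. Both gLmna-1 cultures lay above both gMock cultures, and the log2 difference was 1.86 ± 0.31 (SE, limma adjusted p = 0.039). Here and below, such separation of the libraries describes genes chosen for their change and is no added evidence. Its share over all tested genes is not given. Ccl2, which attracts monocytes, had 470 and 651 FPKM with gLmna-1, against 220 and 260 FPKM with gMock (log2 difference 1.21 ± 0.23, adjusted p = 0.0465). Cxcl15, a mouse chemokine known from lung, had 7.64 and 3.91 FPKM with gLmna-1, against 4.63 and 0.453 FPKM with gMock (1.19 ± 0.22, adjusted p = 0.0465), and its groups overlapped. Of 23 tested chemokines and cytokines 2 passed, Cxcl1 and Ccl2, where 0.976% of all tested genes did. The list's median log2 difference was 0.38, against -0.03 over all genes. Ccl7, a neighbour of Ccl2 in the same chemokine cluster, had 479 and 662 FPKM with gLmna-1, against 277 and 235 FPKM with gMock (1.14 ± 0.25, adjusted p = 0.0632). Ccl20 had 10.9 and 31.6 FPKM with gLmna-1, against 1.66 and 9.41 FPKM with gMock (1.91 ± 0.44, adjusted p = 0.0752). The cytokine Il6 was uneven, with log2 changes of 1.66 in mouse 1 and 0.05 in mouse 2.

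The 2 named genes of the Serpina3 family and Steap4 rose as well. Serpina3g had 11.5 and 10.3 FPKM with gLmna-1, against 3.24 and 0.825 FPKM with gMock, the largest log2 difference of the named genes at 2.10 ± 0.34 (limma adjusted p = 0.039). Its relative Serpina3n, a secreted inhibitor of serine proteases, had 13.05 and 10.3 FPKM with gLmna-1, against 3.53 and 4.43 FPKM with gMock (1.34 ± 0.23, adjusted p = 0.039). Both belong to a family of close copies, so reads may be split among members. Steap4, a metalloreductase of the plasma membrane and endosomes induced by inflammatory signals, had 8.32 and 9.90 FPKM with gLmna-1, against 1.97 and 1.27 FPKM with gMock (1.96 ± 0.31, adjusted p = 0.0334). For these genes every gLmna-1 library was above every gMock library. Serping1, the inhibitor of the C1 complement proteases, had 44.01 and 25.2 FPKM with gLmna-1, against 16.3 and 12.5 FPKM with gMock (1.17 ± 0.11, adjusted p = 0.013), and C1ra, one of those proteases, had 25.4 and 19.2 against 13.2 and 11.9 FPKM (0.77 ± 0.11, adjusted p = 0.027). Lbp, which binds bacterial lipopolysaccharide, had 9.95 and 12.4 FPKM with gLmna-1, against 5.35 and 5.19 FPKM with gMock (0.95 ± 0.13, adjusted p = 0.027). Serping1, C1ra and Lbp were picked after their values were seen.

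Among 17 tested NF-kB subunits and targets 1 passed, Vcam1, an adhesion receptor for leukocytes, with 58.6 and 50.3 FPKM with gLmna-1, against 38.4 and 18.7 FPKM with gMock (0.99 ± 0.18, limma adjusted p = 0.0465). The list's median was 0.10, and 0.976% of all tested genes passed. Ptgs2, the inducible cyclooxygenase, had 84.0 and 83.7 FPKM with gLmna-1, against 113 and 176 FPKM with gMock and did not pass (adjusted p = 0.0885). The subunit gene Nfkb1 had 13.7 and 13.6 FPKM with gLmna-1, against 11.8 and 10.7 FPKM with gMock (adjusted p = 0.22). Of 18 tested members of a glycolysis and hypoxia list none passed, with medians of 0.01 in mouse 1 and 0.51 in mouse 2.

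Promoters of 4 of these genes are shown because all held, on either strand, GGG followed by any 2 bases and then TTTCC, a form of the site that NF-kB family proteins bind. Each runs from 250 bases before to 50 after the RefSeq start site (GRCm38.p6), on the plus strand, and capitals mark the matches. Cxcl1 lies at chr5:90890995-90891294, Steap4 at chr5:7960222-7960521, Serpina3g at chr12:104235897-104236196 and Serpina3n at chr12:104406458-104406757.
Cxcl1: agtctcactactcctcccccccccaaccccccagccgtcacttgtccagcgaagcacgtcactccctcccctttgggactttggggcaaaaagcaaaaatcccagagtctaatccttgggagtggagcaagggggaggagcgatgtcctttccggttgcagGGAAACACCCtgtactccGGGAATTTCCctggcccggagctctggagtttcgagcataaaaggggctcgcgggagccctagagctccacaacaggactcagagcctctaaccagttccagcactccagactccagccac
Steap4: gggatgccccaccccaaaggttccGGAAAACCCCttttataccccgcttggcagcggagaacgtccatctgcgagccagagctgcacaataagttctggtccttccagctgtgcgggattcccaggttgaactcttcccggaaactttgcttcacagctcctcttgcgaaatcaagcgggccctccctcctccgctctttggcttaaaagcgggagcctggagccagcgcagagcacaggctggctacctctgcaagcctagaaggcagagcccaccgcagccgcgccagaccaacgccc
Serpina3g: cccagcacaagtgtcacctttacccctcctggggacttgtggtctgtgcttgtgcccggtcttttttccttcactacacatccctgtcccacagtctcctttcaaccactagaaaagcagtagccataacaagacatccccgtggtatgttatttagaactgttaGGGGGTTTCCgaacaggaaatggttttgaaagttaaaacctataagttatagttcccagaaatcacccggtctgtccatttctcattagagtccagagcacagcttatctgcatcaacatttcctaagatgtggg
Serpina3n: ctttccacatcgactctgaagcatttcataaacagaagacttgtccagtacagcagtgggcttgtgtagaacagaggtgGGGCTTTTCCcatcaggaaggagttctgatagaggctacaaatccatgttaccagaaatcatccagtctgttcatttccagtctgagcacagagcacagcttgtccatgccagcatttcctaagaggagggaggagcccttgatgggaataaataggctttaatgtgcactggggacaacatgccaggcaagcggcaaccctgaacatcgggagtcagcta
The Cxcl1 promoter had 2 matches, starting 89 and 71 bases before the start site, and each of the other 3 had 1. The motif was 1 of 9 searched, picked after the genes were seen; the others were 3 looser or stricter NF-kB forms, overlapping with it, an AP-1 site, a TATA box, 2 STAT sites and an interferon response element. It was in 1.63% of 32851 promoters and 2.06% of 9833 tested genes with a promoter sequence. Among the called genes with a promoter sequence it was in 7 of 50 higher genes, which also include Il17rc, Rab15 and Rab9, and in 0 of 42 lower ones. Cxcl15 and C1ra, named above, had a promoter sequence without this motif, and Serpina3g and Serpina3n are relatives. The looser NF-kB forms were in 8 and 36 of the 50 higher genes, against 7.31% and 72.2% of tested genes, and the stricter one was in 1, against 0.122%. The AP-1 site was in 6 of the 50 (6.55% of tested genes), the TATA box in 6 (8.89%), the STAT sites in 8 and 2 (8.19% and 1.45%) and the interferon element in 4 (3.73%). These counts were not tested. A match is a run of letters and not a measured binding site.

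**Figure D3:**
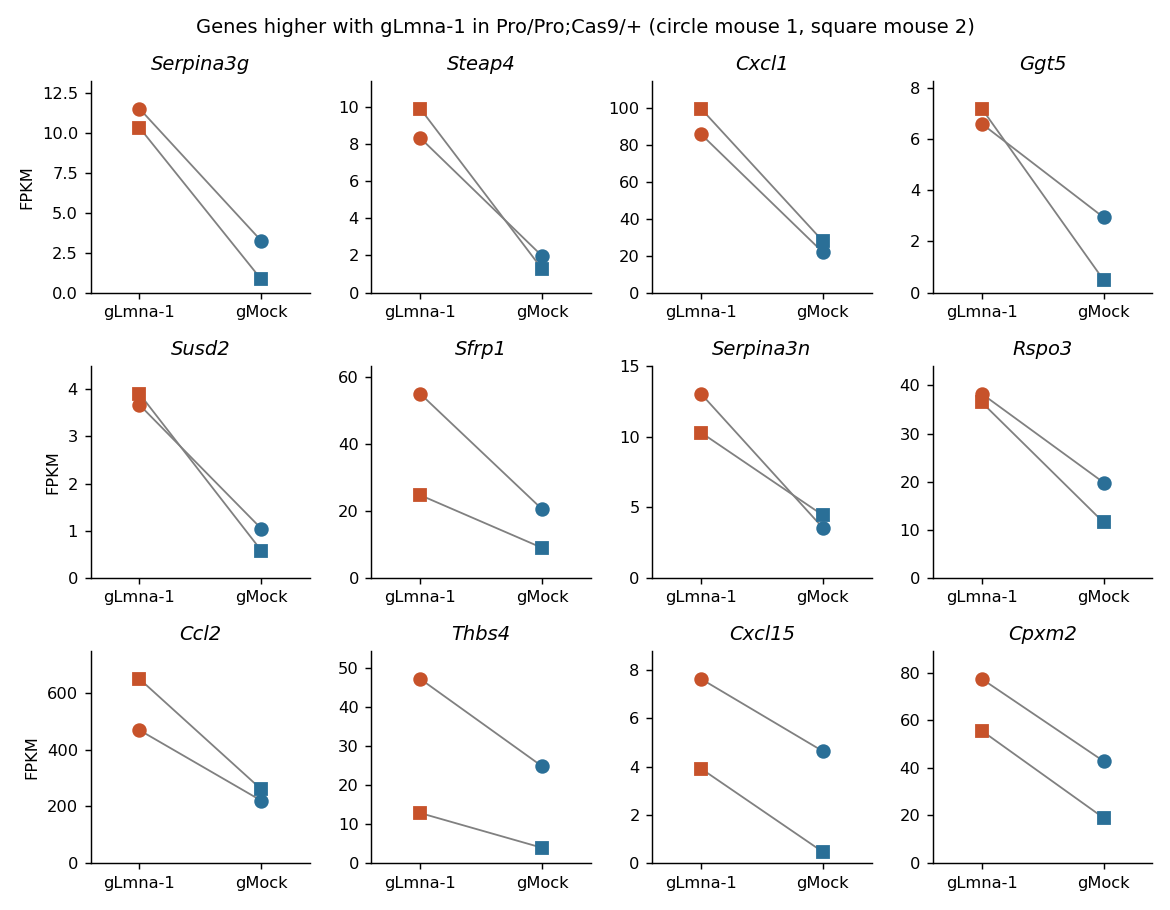
FPKM of the 12 genes with the largest passing increase, with gLmna-1 on the left and gMock on the right of each panel; lines join libraries of 1 mouse (circle mouse 1, square mouse 2), and each axis starts at 0. Every line falls towards gMock, as for Cxcl1 with 85.6 and 99.4 FPKM with gLmna-1 and 21.8 and 27.8 FPKM with gMock.

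The other named higher genes included 2 regulators of Wnt signalling, Sfrp1 and Rspo3. Sfrp1, a secreted antagonist of Wnt ligands, had 54.9 and 24.7 FPKM with gLmna-1, against 20.5 and 8.93 FPKM with gMock, and changed almost equally in the mice (log2 difference 1.38 ± 0.14, limma adjusted p = 0.0131). Rspo3, which strengthens Wnt signalling, had 38.3 and 36.5 FPKM with gLmna-1, against 19.8 and 11.5 FPKM with gMock (1.25 ± 0.18, adjusted p = 0.0269). So a Wnt antagonist and a Wnt enhancer both rose. Of 8 tested secreted Wnt antagonists Sfrp1 alone passed, where 0.976% of all tested genes did. Sfrp4 had 0.571 and 0.656 FPKM with gLmna-1, against 1.26 and 2.30 FPKM with gMock (adjusted p = 0.0853). Ggt5, which cleaves leukotrienes and glutathione, had 6.60 and 7.19 FPKM with gLmna-1, against 2.94 and 0.487 FPKM with gMock (1.70 ± 0.30, adjusted p = 0.0419). Susd2, a membrane protein, had 3.67 and 3.91 FPKM with gLmna-1, against 1.04 and 0.576 FPKM with gMock (1.42 ± 0.26, adjusted p = 0.0465). Thbs4, a matrix glycoprotein, had 47.3 and 12.8 FPKM with gLmna-1, against 24.8 and 3.89 FPKM with gMock (1.20 ± 0.17, adjusted p = 0.0269). Cpxm2, a secreted carboxypeptidase-like protein, had 77.5 and 55.7 FPKM with gLmna-1, against 42.8 and 18.9 FPKM with gMock (1.17 ± 0.17, adjusted p = 0.0298). In Sfrp1 and Cpxm2 both gLmna-1 libraries exceeded both gMock libraries, whereas in Thbs4 mouse 2 with gLmna-1 lay below mouse 1 with gMock.

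Matrix genes mostly had positive differences, and few passed. Among 16 tested elastic fibre and microfibril genes 3 rose and none fell, where 0.603% and 0.373% of all tested genes did. Mfap5, a microfibril glycoprotein, had 201 and 100.2 FPKM with gLmna-1, against 119 and 44.3 FPKM with gMock (log2 difference 0.96 ± 0.13, limma adjusted p = 0.0269). Fbln5, which guides elastic fibre assembly, had 66.5 and 37.0 FPKM with gLmna-1, against 48.9 and 26.6 FPKM with gMock (0.45 ± 0.07, adjusted p = 0.039). Fbln1, a fibulin of the matrix, had 35.4 and 28.8 FPKM with gLmna-1, against 21.3 and 15.1 FPKM with gMock (0.80 ± 0.14, adjusted p = 0.0417). Loxl1, which cross-links elastin, had 101 and 70.3 FPKM with gLmna-1, against 65.4 and 31.7 FPKM with gMock (0.87 ± 0.13, adjusted p = 0.0301) and was the single passing member of 19 collagen modifiers. Of these, in Fbln1 and Loxl1 the gLmna-1 libraries all lay above the gMock libraries.

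Of 22 tested collagens 1 passed, Col14a1, which associates with collagen fibrils, with 1.71 and 4.63 FPKM with gLmna-1, against 0.348 and 2.01 FPKM with gMock (0.95 ± 0.12, limma adjusted p = 0.0243). The share of all tested genes that passed was 0.976%. Positive fitted differences were found for 18 of the 22, against 5360 of all 12599 tested genes, with a list median of 0.37. Col3a1, a fibrillar collagen of skin, had 531 and 462 FPKM with gLmna-1, against 368 and 123 FPKM with gMock (1.22 ± 0.29, adjusted p = 0.0827), and its change was 0.53 in mouse 1 and 1.90 in mouse 2. Of 17 proteoglycans and matricellular genes none passed (median 0.38). Among 14 metalloproteases and inhibitors Mmp23, a membrane-anchored protease, passed with 66.3 and 48.7 FPKM with gLmna-1, against 39.8 and 17.7 FPKM with gMock (1.06 ± 0.15, adjusted p = 0.0269). Timp3, an inhibitor bound to matrix, had 488 and 445 FPKM with gLmna-1, against 700.2 and 784 FPKM with gMock (-0.67 ± 0.14, adjusted p = 0.0628). Adam33, a metalloprotease named after its values were seen, had 7.87 and 3.78 FPKM with gLmna-1, against 3.24 and 1.11 FPKM with gMock (1.12 ± 0.08, adjusted p = 0.0032).

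The 12 named lower genes had varied roles. Itga6, the laminin receptor subunit alpha 6, had 4.06 and 5.22 FPKM with gLmna-1, against 9.53 and 28.2 FPKM with gMock (log2 difference -1.64 ± 0.22, limma adjusted p = 0.0269). Npnt, a matrix ligand of integrins, had 1.92 and 0.820 FPKM with gLmna-1, against 4.73 and 1.86 FPKM with gMock (-0.81 ± 0.12, adjusted p = 0.0316). Krt19, a keratin of simple epithelia, had 3.20 and 0.468 FPKM with gLmna-1, against 8.40 and 3.69 FPKM with gMock (-1.42 ± 0.21, adjusted p = 0.0295). In Itga6 and Krt19 both gLmna-1 cultures lay below both gMock cultures, while in Npnt the groups overlapped. The 12 keratinocyte markers, a separate list without Krt19, summed to 6.26 and 6.71 FPKM with gLmna-1, against 7.30 and 12 FPKM with gMock, mainly through the desmosome gene Dsp at 2.77 and 2.90 FPKM, against 4.06 and 9.10 FPKM. Whether their share bears on Krt19 was not tested, and in RNA from a whole culture fewer cells of a type and less RNA per cell cannot be told apart.

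Cpm, a membrane carboxypeptidase, had 1.03 and 1.22 FPKM with gLmna-1, against 2.96 and 7.82 FPKM with gMock (-1.48 ± 0.22, limma adjusted p = 0.0295). Osbpl3, an oxysterol-binding protein, had 4.95 and 3.84 FPKM with gLmna-1, against 8.52 and 10.2 FPKM with gMock (-0.95 ± 0.15, adjusted p = 0.0318). Hmga2, a chromatin protein of growing and embryonic cells, had 17.3 and 18.5 FPKM with gLmna-1, against 25.6 and 44.5 FPKM with gMock (-0.88 ± 0.16, adjusted p = 0.0465). In each of these the gMock library of mouse 2 was the highest of the 4 and both gLmna-1 libraries were below both gMock ones. The kinases Wnk1 and Hipk1 had log2 differences of -0.80 ± 0.10 and -0.79 ± 0.11, and Hipk1 changed almost equally in the mice, by -0.79 and -0.80. Wnk1 had 29.4 and 40.7 FPKM with gLmna-1, against 46.0 and 80.4 FPKM with gMock. Fat1, a giant cadherin, had 46.2 and 58.2 FPKM with gLmna-1, against 69.3 and 112 FPKM with gMock (-0.76 ± 0.10, adjusted p = 0.0269). Jade1, Mgat5 and Abca2, a chromatin reader, a glycan-branching enzyme and a lipid transporter, had log2 differences of -0.81, -0.74 and -0.73. Ccnd1, the G1 cyclin D1, was named after its values were seen and had 93.6 and 120.2 FPKM with gLmna-1, against 128 and 241 FPKM with gMock (-0.72 ± 0.13, adjusted p = 0.042).

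**Figure D4:**
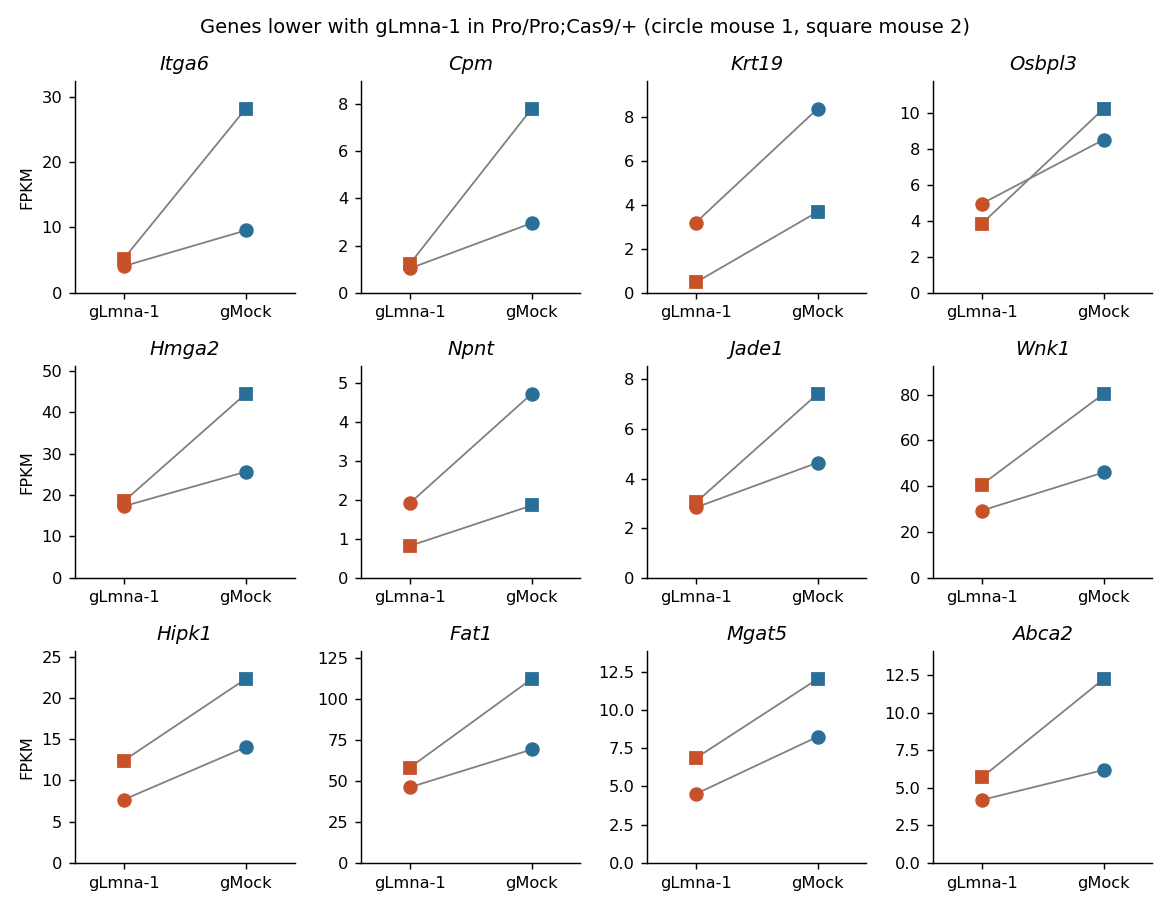
FPKM of the 12 genes with the largest passing decrease, with gLmna-1 on the left and gMock on the right of each panel; lines join libraries of 1 mouse (circle mouse 1, square mouse 2), and each axis starts at 0. Every line climbs towards gMock, as for Itga6 with 4.06 and 5.22 FPKM with gLmna-1 and 9.53 and 28.2 FPKM with gMock.

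Genes of the lamina and nuclear pore gave few calls. None of 8 tested lamin and prelamin-processing genes passed, and the list's median log2 difference was -0.09. Zmpste24, the protease that cleaves prelamin A, had 31.3 and 34.2 FPKM with gLmna-1, against 39.1 and 35.7 FPKM with gMock (adjusted p = 0.297). Icmt, which methylates farnesylated proteins, had 19.7 and 20.1 FPKM with gLmna-1, against 21.5 and 22.2 FPKM with gMock (adjusted p = 0.441). Of 18 nuclear envelope and pore genes 2 fell, both of the nuclear basket of the pore, where 0.373% of all tested genes fell. Nup153 had 8.94 and 10.8 FPKM with gLmna-1, against 12.9 and 14.8 FPKM with gMock (-0.45 ± 0.08, limma adjusted p = 0.0449). Tpr had 25.1 and 30.2 FPKM with gLmna-1, against 32.2 and 40.4 FPKM with gMock (-0.38 ± 0.07, adjusted p = 0.0485).

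Of 30 tested p53 targets 1 rose and 1 fell, where 0.603% and 0.373% of all tested genes did. The list's median was -0.20. Mdm2, the ubiquitin ligase that restrains p53, had 62.4 and 63.5 FPKM with gLmna-1, against 104 and 94.6 FPKM with gMock (-0.65 ± 0.09, limma adjusted p = 0.0269). Dram1, a lysosomal regulator of autophagy, had 10.7 and 10.5 FPKM with gLmna-1, against 5.64 and 4.34 FPKM with gMock (0.96 ± 0.15, adjusted p = 0.0318). Pmaip1, which encodes the apoptosis protein Noxa, had 9.18 and 4.17 FPKM with gLmna-1, against 14.9 and 14.9 FPKM with gMock (-1.13 ± 0.22, adjusted p = 0.0509). None of 18 double-strand break repair genes passed, while 17 had negative fitted differences (median -0.25), against 7239 of all 12599 tested genes. Atm, the kinase that signals such breaks, had 1.52 and 1.88 FPKM with gLmna-1, against 2.46 and 2.91 FPKM with gMock (-0.45 ± 0.11, adjusted p = 0.0881).

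Cell-cycle lists gave few calls. Of 13 tested cell cycle inhibitors and senescence genes, Cdkn2a rose and Hmga2 fell, where 0.603% and 0.373% of all tested genes did. Cdkn2a, which encodes the inhibitors p16 and p19, had 145 and 102 FPKM with gLmna-1, against 112 and 69.1 FPKM with gMock (0.46 ± 0.08, limma adjusted p = 0.0465), and its groups overlapped. Of 28 DNA replication genes none passed, with a median of -0.02 in mouse 1 and -0.55 in mouse 2. Rrm2, a subunit of ribonucleotide reductase, showed that difference, with 29.5 and 23.7 FPKM with gLmna-1, against 32.7 and 69.2 FPKM with gMock (adjusted p = 0.246). Of 28 mitosis genes none passed although all 28 had negative fitted differences (median -0.18), against 7239 of all 12599 tested genes.

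Interferon-response genes mostly had negative differences, and none passed. Of 39 tested members 0 passed, 38 had negative fitted differences and 34 were lower in both mice. Over all 12599 tested genes, 7239 had negative fitted differences and 3490 were lower in both mice. The list's medians were -0.44 in mouse 1 and -0.61 in mouse 2. Isg15, a ubiquitin-like protein induced by interferon, had 8.92 and 6.37 FPKM with gLmna-1, against 19.2 and 38.8 FPKM with gMock (-1.73 ± 0.44, limma adjusted p = 0.0969). Irgm1, an interferon-induced GTPase, had 10.9 and 11.9 FPKM with gLmna-1, against 18.7 and 33.8 FPKM with gMock (-1.08 ± 0.22, adjusted p = 0.0615). For Isg15 and Irgm1 both gLmna-1 libraries were below both gMock ones. The list's median was -1.49 for gLmna-1 in +/+;Cas9/+ cells and -0.02 in Pro/+; +/+ cells. Of 15 class I antigen presentation genes none passed (median -0.07, against -0.86 in +/+;Cas9/+). By contrast Ifitm3 and Ifitm2, membrane proteins that block viral entry, were among the 76 higher genes: Ifitm3 had 676 and 452 FPKM with gLmna-1, against 469.7 and 289 FPKM with gMock. They are close copies and were named after their values were seen.

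Cholesterol synthesis and uptake genes were all higher in the fit, 18 of 18 with positive differences and 16 higher in both mice, yet none passed (median 0.36). Over all 12599 tested genes, 5360 had positive differences and 2448 were higher in both mice. Hmgcs1, an early enzyme of sterol synthesis, had 37.3 and 23.2 FPKM with gLmna-1, against 25.3 and 12.1 FPKM with gMock (0.71 ± 0.20, limma adjusted p = 0.118). The same list had a median of 0.42 for gLmna-1 in +/+;Cas9/+ cells and 0.04 in Pro/+; +/+ cells, which lack Cas9. Of 26 endoplasmic reticulum chaperones and stress genes none passed (median 0.14); Manf, a secreted stress protein, had 85.8 and 93.0 FPKM with gLmna-1, against 70.0 and 64.5 FPKM with gMock (adjusted p = 0.0588).

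Other lists held 1 passing gene or none, where 0.976% of all tested genes passed. Of 20 lysosome genes 1 rose, Ctsh, a cysteine cathepsin, with 52.5 and 55.8 FPKM with gLmna-1, against 32.1 and 35.4 FPKM with gMock (0.67 ± 0.08, limma adjusted p = 0.023). Of 11 posterior Hox genes 1 rose, Hoxb13, a tail-region identity gene, with 101 and 64.7 FPKM with gLmna-1, against 75.8 and 34.3 FPKM with gMock (0.66 ± 0.11, adjusted p = 0.0364). Of 14 YAP and TEAD targets 1 fell, Amotl1, a junction protein that binds YAP, with 11.8 and 15.6 FPKM with gLmna-1, against 16.6 and 23.4 FPKM with gMock (-0.51 ± 0.07, adjusted p = 0.0269). None passed among 15 NRF2 targets (median -0.25), 15 cytosolic chaperones (-0.24), 21 TGF-beta and BMP genes (-0.14), 12 genes of the IGF system (-0.09), 17 contractile genes (0.18), 19 respiratory chain subunits (0.04) or 20 ribosomal protein genes (0.03). Immediate early genes parted the mice: none of 17 passed, with a median of 0.93 in mouse 1 and -0.69 in mouse 2. None of the tested members of the 9 marker lists of cell types passed.

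**Figure D5:**
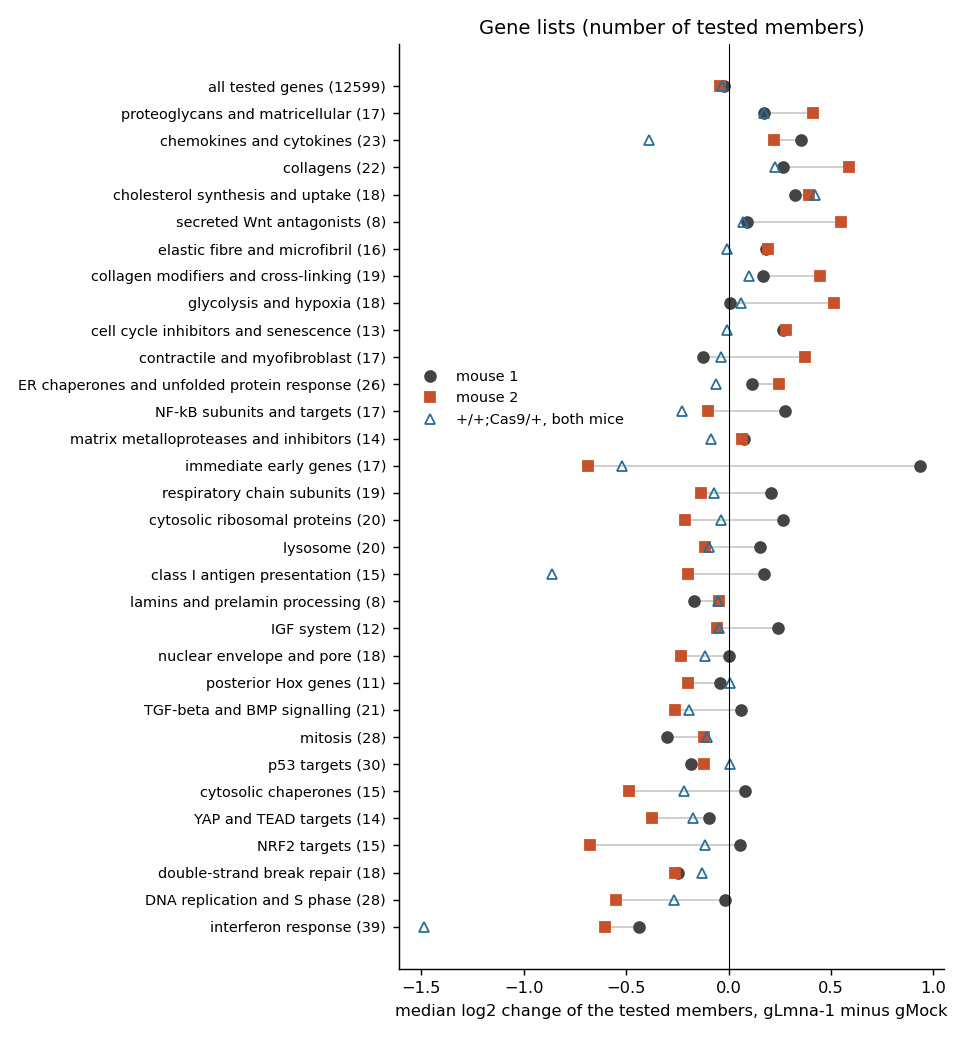
Median log2 change, gLmna-1 minus gMock, of the tested members of each gene list in Pro/Pro;Cas9/+ mouse 1 (circles) and mouse 2 (squares), with the fitted median in +/+;Cas9/+ (open triangles); numbers of tested members are in brackets. Interferon genes lie left of 0 in both mice (-0.44 and -0.61), cholesterol genes right of it (0.33 and 0.39), and immediate early genes on opposite sides (0.93 and -0.69).

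The response was set against that of the other genotypes to the same guides. Of the 76 genes higher in Pro/Pro;Cas9/+, 56 had positive differences in +/+;Cas9/+ cells, where 41.2% of all tested genes did and 2 of the 76 passed. In Pro/+; +/+ cells 49 of the 76 were positive, against 37.3% of all genes, and none passed. Of the 47 lower genes 45 were negative in +/+;Cas9/+ (58.7% of all genes) and 26 in Pro/+; +/+ (62.7%). gLmna-1 against gMock called 3 higher (0.0238%) and 84 lower genes (0.667%) in +/+;Cas9/+, together 0.691%, and 0 in Pro/+; +/+ (173 at an unadjusted p under 0.05 with limma). The difference between genotypes was itself tested. The gLmna-1 effect differed from that in +/+;Cas9/+ in 4 of 12599 genes (0.0317%; 724 at an unadjusted p under 0.05) and from that in Pro/+; +/+ in 0 (1089 at an unadjusted p under 0.05; 0 also with limma voom on recovered reads).

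The 4 genes were Cfb, H2-K1, Ifitm3 and Serping1. Cfb, complement factor B, had 4.98 and 2.90 FPKM with gLmna-1, against 2.43 and 1.62 FPKM with gMock in Pro/Pro;Cas9/+ cells, and 2.79 and 2.49 FPKM with gLmna-1, against 7.11 and 7.30 FPKM with gMock in +/+;Cas9/+ cells. It was thus higher with the guide in one genotype and lower in the other. Without the gLmna-1 library of mouse 1 the count of such genes was 50 with that difference and 806 for the difference from Pro/+; +/+, and without the gMock library of mouse 2 it was 11 for +/+;Cas9/+. Without the gMock library of mouse 1 the counts were 2 and 3, and without the gLmna-1 library of mouse 2 they were 3 and 0.

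Cxcl1, Ccl2 and Steap4 had large differences between genotypes that did not pass. Cxcl1 had a log2 difference of -0.39 between gLmna-1 and gMock in +/+;Cas9/+ cells and of -0.53 in Pro/+; +/+ cells, and its difference from +/+;Cas9/+ was 2.25 ± 0.44 (limma adjusted p = 0.238). Ccl2 had log2 differences of -0.49 and -0.41 there, and its difference from +/+;Cas9/+ was 1.69 ± 0.32 (adjusted p = 0.2). For Steap4 the difference from +/+;Cas9/+ was 1.54 ± 0.43 (adjusted p = 0.487). Of the 12 named higher genes 12 had positive differences from each of the other genotypes, and of the 12 named lower genes 12 had negative ones. These genes were chosen on the Pro/Pro;Cas9/+ values, which form 1 side of each difference, so these directions are a description.

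In the same 2 mice gLmna-1 was set against gLmna-2. The fit called 381 genes higher (3.02%) and 872 lower (6.92%) with gLmna-1, together 9.95% of those tested. Without the gLmna-2 library of mouse 1 the total was 140, without that of mouse 2 it was 238, without the gLmna-1 library of mouse 1 it was 2629, and with no mouse block it was 59. Both guides were compared with the same 2 gMock libraries, so their effects share those values. Cxcl1 had 85.6 and 99.4 FPKM with gLmna-1, 19.5 and 19.6 FPKM with gLmna-2 and 21.8 and 27.8 FPKM with gMock. Itga6 had 4.06 and 5.22 FPKM with gLmna-1, 13.7 and 30.1 FPKM with gLmna-2 and 9.53 and 28.2 FPKM with gMock. In both genes the gLmna-2 values lay near those of gMock. Of the 76 genes higher than with gMock, 58 also passed between the guides, and of the 47 lower genes 43 did. Over all tested genes the share was 9.95%. The gLmna-1 libraries enter both comparisons, so these counts are a description.

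Some genes stood at like levels with both Lmna guides. Mfap5 had 201 and 100.2 FPKM with gLmna-1, 169 and 96.4 FPKM with gLmna-2 and 119 and 44.3 FPKM with gMock, and the guides did not differ beyond the test (log2 difference 0.15, limma adjusted p = 0.52). Col14a1 had 1.71 and 4.63 FPKM with gLmna-1, 1.53 and 3.81 FPKM with gLmna-2 and 0.348 and 2.01 FPKM with gMock (0.16, adjusted p = 0.44). Fbln5 had a difference of 0.11 between the guides (adjusted p = 0.42) and Cdkn2a of -0.08 (adjusted p = 0.64). Lmna had 249 and 217 FPKM with gLmna-1, against 247 and 310.0 FPKM with gLmna-2 (-0.25, limma adjusted p = 0.413). Its levels were thus alike in mouse 1 only, and in mouse 2 Lmna was lower with gLmna-1.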

How the data were processed

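RNA-seq of 18 libraries was read from 1 deposited table. The submitters' processing notes name FastQC 0.11.2, STAR 2.4.0k, HOMER and the mm10 build. HOMER gave the deposited FPKM, per the file headers counted on exons without merging a transcript's parts (404759 parts, 36795 transcripts). The part lengths, another column of the deposited table, served as weights. Of 24 library columns, 6 matched no labelled sample and were not used. The strand of the protocol is not given in the sources used here, so antisense and overlapping transcripts cannot be separated.

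Parts were combined by length, the transcript with the highest mean FPKM stood for each of 24445 symbols (36474 transcripts named from RefSeq, 194 from GENCODE, 127 unnamed), and a gene was tested if 2 or more libraries reached 1 FPKM. limma 3.58.1 (R 4.3.3) was fitted to log2(FPKM + 1) of all 18 libraries with the mouse as block and a guide effect per genotype (6 residual degrees of freedom), with Benjamini-Hochberg adjustment over all 12599 genes and a threshold of 0.05. Fold changes are on the log2(FPKM + 1) scale and understate low genes. The pairing comes from the mouse in the labels; deviations of gLmna-1 and gMock libraries of the same mouse correlated at 0.13, and those of gLmna-2 and gMock at 0.78. Whole reads were recovered for 100.0% of values (tolerance 0.05 read) and tested with limma voom as an alternative. The code was tested on simulated data. Named genes were Lmna, the 12 highest and 12 lowest log2 differences among passing autosomal genes averaging 2 FPKM or more here, and up to 4 members per list by p. Members and lists were chosen with earlier results of these data known. Promoters are from RefSeq. The SEs and p-values take the spread of each gene from all 18 libraries, the other genotypes and guides included. They do not measure the spread between the 2 Pro/Pro;Cas9/+ mice alone.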

Additional observations from a re-analysis of the deposited data

Results flagged for a closer look

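4 genes differed in their response to gLmna-1 between Pro/Pro;Cas9/+ and +/+;Cas9/+ cells by the test of that difference (limma, adjusted over 12599 genes). The difference of the log2 effects was 1.862 for Cfb (SE 0.14, adjusted p = 0.0026), 1.476 for Serping1, 1.297 for H2-K1 and 1.275 for Ifitm3 (adjusted p = 0.020 each), so that each effect was higher in Pro/Pro;Cas9/+. Serping1, the C1 inhibitor, had 44.01 and 25.2 FPKM with gLmna-1, against 16.3 and 12.5 FPKM with gMock in Pro/Pro;Cas9/+, and 64.1 and 45.2 FPKM with gLmna-1, against 82.0 and 54.5 FPKM with gMock in +/+;Cas9/+. H2-K1, a class I histocompatibility gene with close copies, had 74.2 and 80.5 FPKM with gLmna-1, against 59.5 and 85.1 FPKM with gMock in Pro/Pro;Cas9/+, and 63.4 and 57.0 FPKM with gLmna-1, against 151 and 125 FPKM with gMock in +/+;Cas9/+. Ifitm3 had 398 and 500.0 FPKM with gLmna-1, against 680.0 and 764 FPKM with gMock in +/+;Cas9/+.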

How the results depend on the processing

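None of the 24 named genes, nor Lmna, changed sign under the alternatives run. For the 24 this is no check, because they were picked for the same direction in both mice. Some alternatives, such as no replicate block, also leave the log2 difference itself unchanged. Medians near 0 changed sign with the same median in all libraries: the lysosome list became 0.05, against -0.01, and the keratinocyte markers 0.029, against -0.03. The balance of higher and lower calls turned under limma voom for gLmna-1 against gMock and under the same median for gLmna-1 against gLmna-2. The count of 123 genes was 6 with no filter on low values, 216 with a stricter filter of 5 FPKM in 2 libraries, 0 with only the genotypes compared, 193 with limma voom (85 higher, 108 lower) and 0 to 1773 over the libraries left out in turn; it was 122 with a pseudocount of 0.1 FPKM and 122 with the longest transcript per symbol. With the same median in all libraries it was 170 (139 higher, 31 lower). With no replicate block for the mouse pairing the count was 0, the difference from +/+;Cas9/+ gave 0 and the difference between the guides 59.

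The 4 genes that differed from +/+;Cas9/+ became 2 with no filter, 0 with only the genotypes compared and 2 to 50 over libraries left out, and the 0 that differed from Pro/+; +/+ became 0 to 806. Between the guides, 1253 became 0 with only the genotypes compared, 1090 (602 higher, 488 lower) with the same median and 140 to 2629 over libraries left out. The Lmna difference ranged from -0.70 to -0.047 over libraries left out. Of the 24 named genes, 22 passed with the same median and 20 with limma voom, but 1 with no filter, 14 without the gMock library of mouse 1 and 0 without either library of mouse 2. With the same median, list medians became -0.14 for p53 targets, 0.31 for cell cycle inhibitors, 0.36 for elastic fibre genes, 0.15 for metalloproteases, -0.19 for break repair, 0.42 for cholesterol genes, 0.029 for keratinocyte and -0.055 for adipocyte markers. The causes were not tested. The number of mice, 2, limits the precision, and where a library is left out the remaining one is assumed to vary like the other groups.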

Other observations

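Among genes that differed between the mice under gLmna-2, the mice differed less with gLmna-1 than with gMock. Genes were sorted by their difference between the mice under gLmna-2, which enters neither side of the comparison. Deviations of same-mouse libraries correlated at 0.78 for gLmna-2 and gMock, and at -0.02 for gLmna-2 and gLmna-1. Genes sorted this way thus tend to keep their gap with gMock, and the gap over all genes is not given. The 205 genes over 1 log2 unit higher in mouse 1 than in mouse 2 under gLmna-2 had a median mouse 1 minus mouse 2 difference of 0.09 with gLmna-1, against 1.14 with gMock. The 249 genes over 1 log2 unit higher in mouse 2 had a median of -0.03 with gLmna-1, against -1.38 with gMock. Most of the change lay in mouse 2. From gMock to gLmna-1 the 205 genes changed by a median of 0.03 in mouse 1 and 1.10 in mouse 2. For the 249 genes the medians were 0.13 in mouse 1 and -1.10 in mouse 2. The libraries kept their mouse's marks: Ifi202b was listed at 0 in mouse 1 under every guide and had 11.6 FPKM in mouse 2 with gLmna-1, and Ftl1 followed the mouse too, at 4.02 FPKM in mouse 1 and 340.0 FPKM in mouse 2 with gLmna-1.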
